A study of Mus musculus with 3 samples.

Results

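Solute carriers are membrane proteins that move amino acids, ions, metals, vitamins, nucleotides and metabolites across the plasma membrane, the inner mitochondrial membrane and the membranes of vesicles. Each gene symbol names a family by its number after Slc, and family members usually share a fold and a class of substrate. In striated muscle they are known for supplying taurine and other amino acids to the fibre, for setting chloride and pH, and for exchanging ADP, ATP, phosphate and aspartate with the mitochondrial matrix.

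The genes described here are those whose symbol starts with Slc and a digit and that had 2 or more consensus reads over 3 PacBio Iso-Seq libraries, with Slc8a1 left out. The rule took 32 genes out of 376 such symbols in the gene table, and out of 2248 genes of any kind with 2 or more reads. The number of reads over the 3 libraries chose them, so that number is a description and was not tested. Just inside the limit, 8 members had 2 reads each. Just outside it, 14 symbols had 1 read each, and the other 330 had none. Slc8a1, the sodium-calcium exchanger of the heart, had 37 cardiac, 8 EDL and 3 soleus reads and is not counted among the members. The symbol Slc4a1ap, which names an adaptor protein and not a carrier, was among those with 1 read.

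All libraries came from male C57BL/6 mice aged 8 weeks. The sample titles mark the mice as wild type (wt), and the labels give no treatment. Tissue came from the heart apex (cardiac), from the entire extensor digitorum longus (EDL), a leg muscle of fast-twitch fibres, and from the entire soleus, which is rich in slow-twitch fibres, with 1 library each. The labels do not state how many mice each library holds. Iso-Seq sequences whole cDNA molecules. Each full-length read is 1 sequenced molecule, and a consensus read merges full-length reads of the same form. A count of consensus reads is thus a count of merged groups and not of molecules. Levels and RPM below are in consensus reads unless full-length reads are named. The cDNA had been selected for 5 to 10 kb, and PCR copies without molecular identifiers are not independent molecules, so every interval covers counting error only. With 1 library per tissue there is no replicate check, and differences are between these libraries.

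The libraries held 18302 cardiac, 19826 EDL and 17459 soleus consensus reads in genes. A single read was worth 54.6 cardiac, 50.4 EDL and 57.3 soleus RPM, the usual scale on which a library's reads in genes are brought to a common total. The tissue labels matched their defining markers. A list of 8 heart genes summed to 2283 cardiac, 30 EDL and 31 soleus reads, of which Myh6 gave 2060, 30 and 31; Dsp (119 cardiac reads) and Ryr2 (94) had 0 in both skeletal muscles. A list of 7 genes of fast or all skeletal fibres summed to 23, 1160 and 547 reads. Neb, with 2, 451 and 249, and Ryr1, with 0, 100 and 35, are not limited to fast fibres. A list of 6 genes of slow or oxidative fibres summed to 57, 74 and 630 reads. Of these, Myh7 gave 38, 18 and 433, and Myh2, the myosin of fast oxidative fibres, 5, 56 and 174. Other cell types were present in each sample: 7 endothelial genes summed to 64, 50 and 49 reads, 7 fibroblast and matrix genes to 5, 18 and 24, and 5 smooth muscle and pericyte genes to 20, 27 and 22. In such bulk samples, fewer cells of a type and less RNA per cell cannot be told apart, and the part of these cells in any result below was not tested.

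The sequences below carry the transcript forms described later. They were read from GENCODE M21 transcripts on GRCm38, 5′ to 3′. The first pair are the junctions into exon 2 of Slc12a7 (chr13:73784519-73784533, plus strand), each with 15 bases of the exon before it in lower case and 15 bases of exon 2 in capitals. They are shown because most Slc12a7 reads began at an exon that the authors' annotation lacked.
Slc12a7 from the upstream exon: agcccagccgctatgGAGATGGAAACCCCA
Slc12a7 from the annotated first exon: cctcccctacgccggGAGATGGAAACCCCA
The next is the coding end of the internal first exon of Slc4a3 (chr1:75549837-75550053, plus strand, 217 nt), where the cardiac reads began. Capitals mark the annotated start codon.
Slc4a3 internal first exon: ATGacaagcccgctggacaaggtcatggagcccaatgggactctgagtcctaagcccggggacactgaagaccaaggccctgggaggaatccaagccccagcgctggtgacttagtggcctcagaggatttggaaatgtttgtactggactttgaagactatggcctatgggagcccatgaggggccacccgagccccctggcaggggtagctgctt
A second pair shows an upstream acceptor of Slc4a3 that adds 25 nt (chr1:75552128-75552152, in capitals) and the usual junction, each with 10 bases on either side.
Slc4a3 upstream acceptor: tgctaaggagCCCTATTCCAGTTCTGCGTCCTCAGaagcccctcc
Slc4a3 usual acceptor: tgctaaggagaagcccctcc
The last are 2 coding exons that some reads skipped, in capitals with 10 bases of each neighbouring exon: exon 13 of Slc9a7 (chrX:20138913-20138972, minus strand, 60 nt) and exon 9 of Slc6a6 (chr6:91741178-91741302, plus strand, 125 nt).
Slc9a7 exon 13: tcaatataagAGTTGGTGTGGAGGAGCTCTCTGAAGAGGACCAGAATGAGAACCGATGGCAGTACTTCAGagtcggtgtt
Slc6a6 exon 9: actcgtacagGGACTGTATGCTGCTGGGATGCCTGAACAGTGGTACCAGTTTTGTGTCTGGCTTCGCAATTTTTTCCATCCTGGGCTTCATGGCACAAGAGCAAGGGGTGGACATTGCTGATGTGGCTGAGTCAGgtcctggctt

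The members together took a small and similar share of each library. They held 143 of the cardiac, 136 of the EDL and 127 of the soleus reads. This was 0.781% of cardiac reads (exact 95% interval 0.659 to 0.92), 0.686% of EDL reads (0.576 to 0.811) and 0.727% of soleus reads (0.607 to 0.865). The cardiac share was 1.14 times the EDL share (95% interval 0.894 to 1.45) and 1.07 times the soleus share (0.84 to 1.38), and the EDL share was 0.943 times the soleus share (0.735 to 1.21). Each interval holds 1. Of the 32 members, 21 were seen in all 3 libraries, 10 in 2 of them and 1, Slc4a3, in the cardiac library alone. Reads of 17 members reached 10 or more, and 11 members had 5 or fewer.

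By substrate, the amino acid and neurotransmitter carriers gave the most members, 8 of 73 symbols, with 31 cardiac, 48 EDL and 30 soleus reads. The cation-chloride and bicarbonate carriers gave 4 of 31, with 43, 21 and 24 reads. The mitochondrial family Slc25 gave 7 of 48, with 18, 29 and 23 reads, and the metal carriers 5 of 33, with 20, 17 and 18. Nucleoside and nucleotide sugar carriers gave 3 of 34, phosphate carriers 2 of 14, and the sodium-proton, sugar and polyol, and vitamin groups 1 each. None of the 26 monocarboxylate, dicarboxylate and bile acid, 30 organic ion and urea, 12 lipid and choline, and 4 vesicular amine symbols reached 2 reads. Slc16a10, of the monocarboxylate family by its number, was counted with the amino acid carriers and had 8 cardiac, 11 EDL and 4 soleus reads.

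The cation-chloride and bicarbonate group was the only role group whose summed reads differed between libraries beyond counting error. Its cardiac level was 2.22 times the EDL level (95% interval 1.29 to 3.93) and 1.71 times the soleus level (1.01 to 2.94). The EDL to soleus ratio was 0.771 (0.408 to 1.44). Slc12a7 held 22 and Slc4a3 15 of its 43 cardiac reads. Without Slc4a3, which was picked through cardiac reads alone, the ratios were 1.44 (0.791 to 2.68) against EDL and 1.11 (0.622 to 2.01) against soleus, and neither interval leaves out 1; this alternative was added after seeing the data.

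A gene counted as different between a pair of libraries if they shared 6 or more of its reads and the exact 95% interval of the RPM ratio left out 1. Between cardiac and EDL, 17 members could be tested, 2 were higher in cardiac and 1 in EDL. That is 17.6% of the members tested, against 16.9% of all 1242 genes tested in that pair, made up of 7.41% higher in cardiac and 9.5% higher in EDL. Between cardiac and soleus, 15 could be tested and 1, Slc4a3, was called, higher in cardiac, against 16.7% of 1199 genes, 6.17% being higher in cardiac. Slc4a3 was picked through cardiac reads alone, which fixed its calls. Without it, an alternative added after seeing the data, 2 of 16 members (12.5%) were called between cardiac and EDL and 0 of 14 between cardiac and soleus. Between EDL and soleus, none of 16 was called, against 7.35% of 1198 genes. The median log2 ratio of the members was -0.13, -0.07 and 0.02 in the 3 pairs, against 0.04, -0.07 and -0.06 for all genes tested. The members' counts of calls are thus near or below the background of each pair. With the stricter rule of 20 reads and an interval wholly beyond 2-fold, 0 of 2, 0 of 3 and 0 of 2 members were called, against 8.4%, 8.25% and 1.82% of all genes tested. Few members have the reads that this rule needs.

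**Figure D1:**
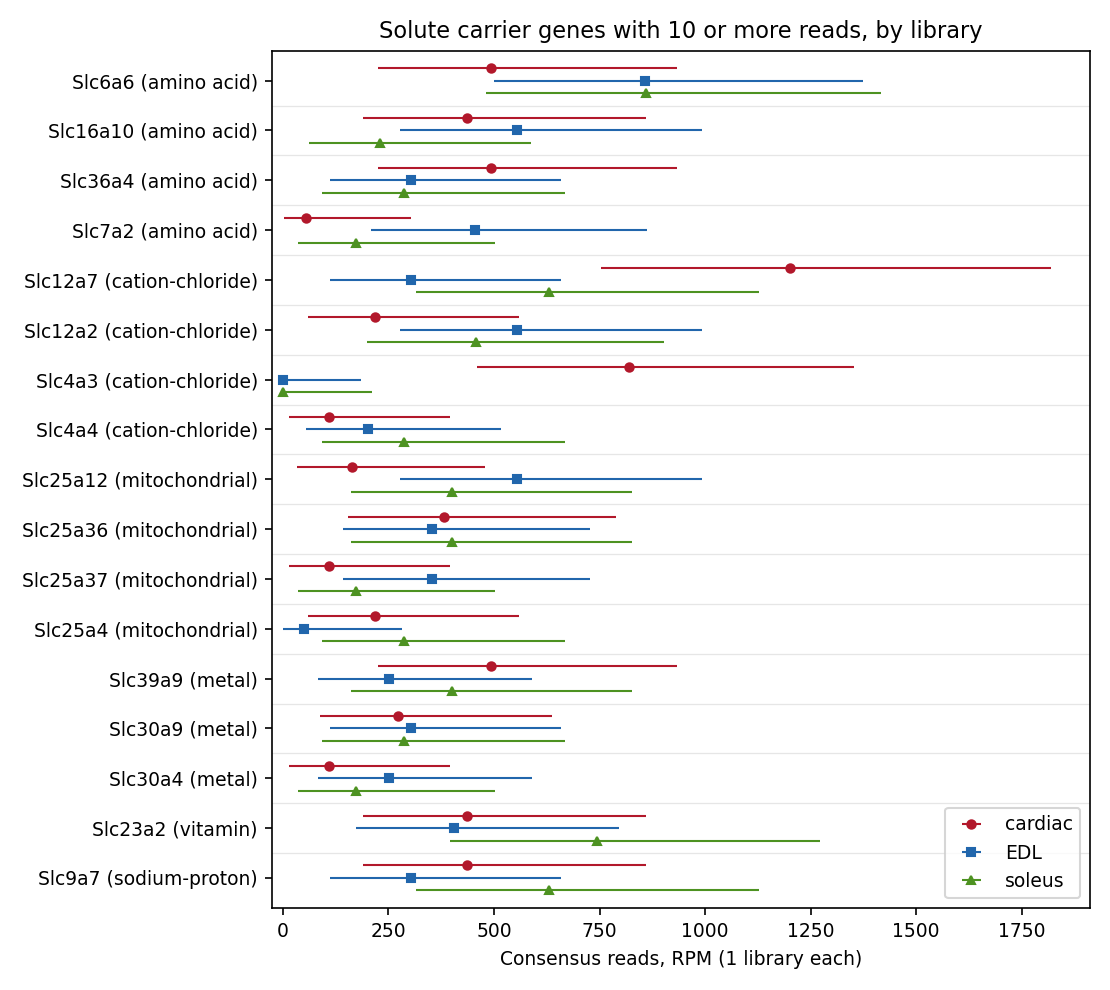
Consensus reads as RPM in each library (horizontal axis, linear) for the 17 members with 10 or more reads, grouped by substrate class; points are the single library of each tissue and bars are exact 95% counting intervals. Slc12a7 and Slc4a3 stand highest in cardiac, and Slc4a3 is at 0 in EDL and soleus.

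Among the anion and bicarbonate carriers, Slc12a7 (chr13:73733094-73816754) encodes a potassium-chloride cotransporter that lets chloride leave the cell with potassium. It had 22 cardiac reads (1202 RPM, 95% interval 753 to 1820), 6 EDL reads (303 RPM, 111 to 659) and 11 soleus reads (630 RPM, 315 to 1127). On consensus reads, the cardiac level was 3.97 times the EDL level (95% interval 1.56 to 12), which was called. It was 1.91 times the soleus level (0.887 to 4.36), which was not. On full-length reads, described below, these ratios were 51.4 and 33.5. The library order was cardiac, soleus, EDL, and the soleus and EDL levels did not differ beyond their intervals, with an EDL to soleus ratio of 0.48 (0.146 to 1.42). Of 3 endothelial genes tested in cardiac and EDL, Kdr was also called higher in cardiac, with 36 cardiac, 17 EDL and 22 soleus reads. Ptprb, with 22, 24 and 17, and Flt1, with 6, 8 and 10, were not called. The part of endothelial cells in the Slc12a7 ratio was not tested.

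Slc4a3 (chr1:75546266-75562172) encodes the chloride-bicarbonate exchanger AE3, which moves acid equivalents in heart and brain. It had 15 cardiac reads and none in EDL or soleus. Against a floor of 3 counts in the library without reads, the cardiac level was 5.42 times EDL and 4.77 times soleus, and both pairs were called. The exact 95% intervals of these ratios start lower, at 3.89 and 3.42. It entered the list through its cardiac reads alone, so a difference was fixed by its choice. That floor stands for 151 RPM in EDL and 172 RPM in soleus, and the exact 95% upper limits of a count of 0 are 186 and 211 RPM.

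The other members of this group did not differ beyond their intervals. Slc12a2, the sodium-potassium-chloride cotransporter that brings chloride in, had 4 cardiac, 11 EDL and 8 soleus reads, a cardiac to EDL ratio of 0.394 (0.0915 to 1.33). Slc4a4, a sodium-bicarbonate cotransporter, had 2, 4 and 5 reads. The inward Slc12a2 and the outward Slc12a7 thus stood in opposite order between cardiac and EDL, but on consensus reads only the Slc12a7 ratio was called, and the difference between the ratios was not tested.

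Of the amino acid carriers, Slc7a2, which takes up arginine and other cationic amino acids, had 1 cardiac, 9 EDL and 3 soleus reads. Its cardiac level was 0.12 times the EDL level (95% interval 0.00275 to 0.869), so it was called higher in EDL. The EDL to soleus ratio of 2.64 had an interval of 0.659 to 15.2, and the cardiac to soleus pair held too few reads. Of 2 fibroblast and matrix genes tested in cardiac and EDL, Fn1 was also called higher in EDL, with 1 cardiac, 9 EDL and 14 soleus reads. Col6a3, with 4, 5 and 5, was not called. The part of matrix-forming cells in the Slc7a2 ratio was not tested. Slc7a2 and Slc6a6 overlap the antisense genes Gm26584 and Gm44981, whose reads cannot be told apart if counting ignored strand. The same limit holds for Slc39a9, which overlaps Erh, for Slc25a37, Slc30a4 and Slc20a1, and for some members with fewer reads. By consensus reads summed over the 3 libraries, the highest member was Slc6a6, the taurine transporter, with 41 against 39 for Slc12a7. In the cardiac library Slc12a7 was higher, with 22 consensus and 502 full-length reads against 9 and 39. Slc6a6 had 9 cardiac (492 RPM), 17 EDL (857 RPM) and 15 soleus reads (859 RPM). The EDL to soleus ratio was 0.998 (95% interval 0.469 to 2.15), and the cardiac to EDL ratio of 0.573 had an interval of 0.225 to 1.36.

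Slc16a10, a carrier of aromatic amino acids, had 8 cardiac, 11 EDL and 4 soleus reads. Slc36a4, a member of the proton-coupled amino acid family, had 9, 6 and 5. Neither was called in any pair. Below 10 reads, Slc38a2, a sodium-coupled carrier of small neutral amino acids, had 3, 2 and 1 reads. Slc38a3, a glutamine carrier, had 1, 1 and 0, and Slc6a2, the noradrenaline transporter of sympathetic nerve endings, and Slc7a6, an exchanger of cationic and neutral amino acids, had 0, 1 and 1 each.

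In the Slc25 family, Slc25a12, the aspartate-glutamate carrier of the malate-aspartate shuttle, had 3 cardiac, 11 EDL and 7 soleus reads. Its cardiac to EDL ratio was 0.295 (0.0529 to 1.12). Slc25a36, a pyrimidine nucleotide carrier, had 7 reads in each library. Slc25a37, which brings iron into the matrix, had 2, 7 and 3 reads. Slc25a4, the ADP/ATP carrier of muscle, had 4, 1 and 5 reads, although its longest annotated transcript has 1925 nt. None of these was called. Slc25a3, the phosphate carrier, had 0, 1 and 1 reads, and Slc25a27 and Slc25a32 had 1, 1 and 0 each.

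None of the metal, vitamin and proton carriers was called in any pair. Slc39a9, a zinc importer, had 9 cardiac, 5 EDL and 7 soleus reads, and Slc30a9, a zinc carrier family member, had 5, 6 and 5. Slc30a4, a zinc exporter, had 2, 5 and 3. Slc23a2, which takes up vitamin C, had 8, 8 and 13 reads, with a cardiac to soleus ratio of 0.587 (0.211 to 1.53). Slc9a7, a sodium-proton exchanger of the Golgi region, had 8, 6 and 11, with an EDL to soleus ratio of 0.48 (0.146 to 1.42). The remaining members held 2 to 8 reads each, among them Slc5a3, the myo-inositol carrier, with 4, 3 and 1. Its exons overlap those of Mrps6 on the same strand, so its reads are uncertain. Slc20a1, a phosphate carrier, had 3, 1 and 3.

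**Figure D2:**
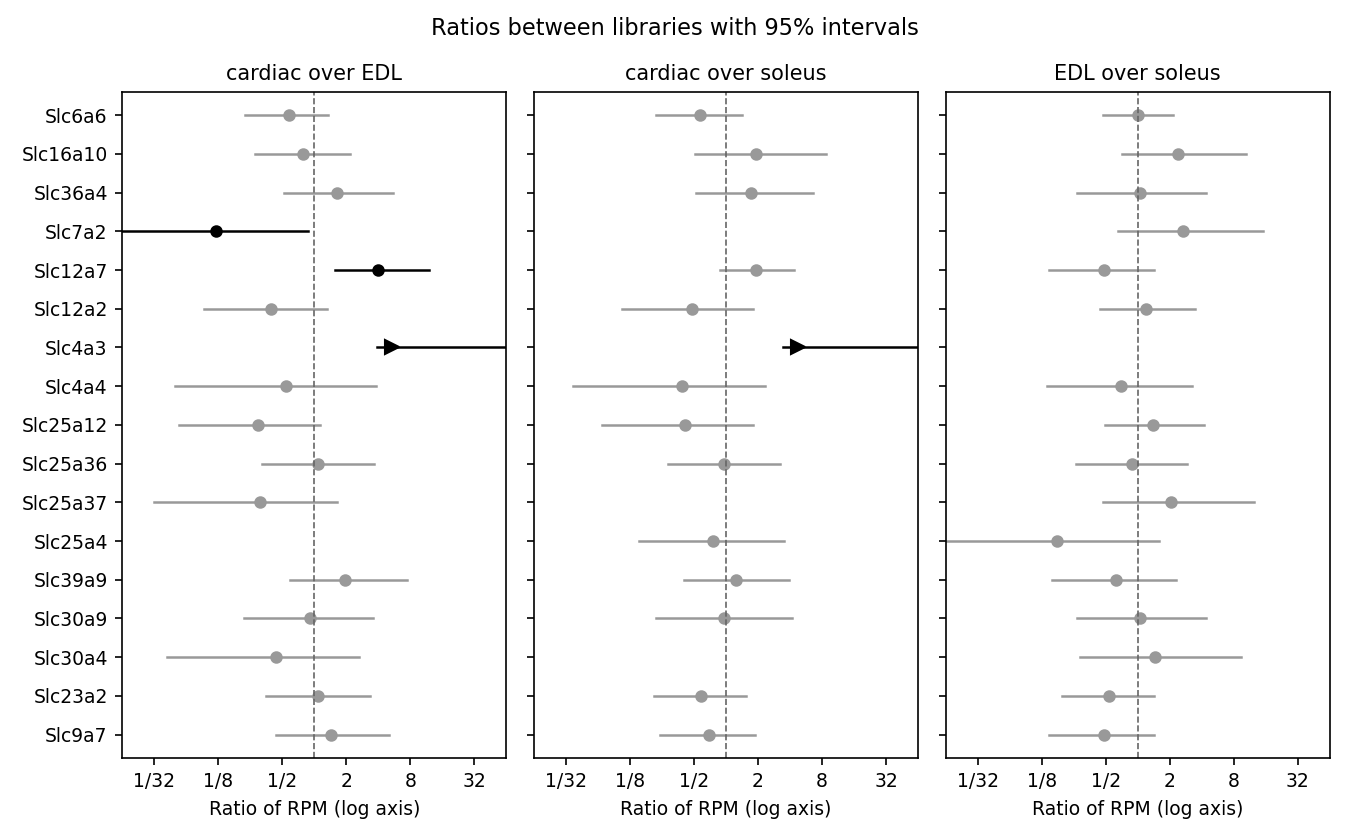
Ratio of RPM (log axis) in the 3 pairs of libraries for members with 10 or more reads, first-named library over the second. Points are ratios and lines are 95% intervals cut at the axis ends, black where the interval leaves out 1. Right-pointing triangles are ratios against a floor of 3 counts in the library without reads, and the intervals start below them. Pairs with under 6 reads are not drawn. Slc4a3 and Slc12a7 lie to the right and Slc7a2 to the left of 1 in cardiac over EDL.

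Each member with exonic parts was also counted in full-length reads, over the part covered by most reads. Slc12a7 had 502 cardiac, 10 EDL and 19 soleus full-length reads from 22, 6 and 11 consensus reads. Scaled to the best-covered parts of all 686 genes of that table, the cardiac level was 51.4 times the EDL level (95% interval 27.7 to 108) and 33.5 times the soleus level (21.2 to 56). A cardiac Slc12a7 consensus read therefore stood for 22.8 full-length reads, against a median of 2.25 over 605 genes with at least 5 cardiac consensus reads, and 3 genes had a higher value. In EDL and soleus the values were 1.67 and 1.73, against medians of 2.36 and 2.22. The cardiac to EDL ratio of Slc12a7 was thus 51.4 in full-length reads and 3.97 in consensus reads.

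Other members moved as well. Slc16a10 had 32 cardiac, 98 EDL and 18 soleus full-length reads from 10, 12 and 4 consensus reads over its best part, an EDL to soleus ratio of 6.74 (4.05 to 11.8) and a cardiac to EDL ratio of 0.334 (0.217 to 0.502). The cardiac to soleus ratio of Slc16a10 was 2.25 (1.23 to 4.26). Slc25a12 had 4, 43 and 8, an EDL to soleus ratio of 6.65 (3.09 to 16.4) and a cardiac to EDL ratio of 0.0952 (0.0248 to 0.262). Slc12a2 had 4, 17 and 14, and its cardiac to EDL ratio of 0.241 (0.0589 to 0.738) left out 1 in these reads. Slc4a3 had 44, 0 and 0. Slc6a6 had 39, 73 and 62, and its EDL to soleus ratio was 1.46 (1.02 to 2.08) against 0.998 in consensus reads. Its cardiac to EDL ratio of 0.547 (0.361 to 0.817) also left out 1 in full-length reads. Slc23a2, with 33, 20 and 27, and Slc9a7, with 9, 13 and 14, did not differ beyond their intervals in either kind of read. PCR copies among the full-length reads are not independent molecules, yet these intervals count every read as separate. They are too narrow to that extent, which was not tested.

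**Figure D3:**
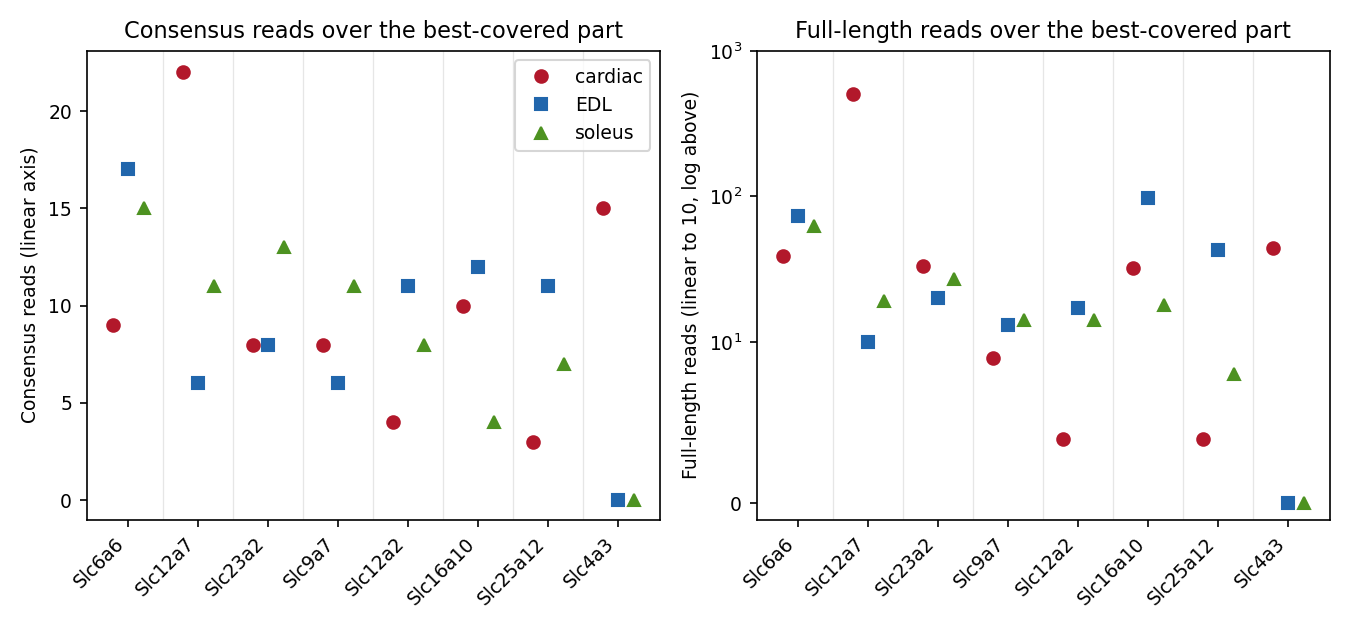
Reads over the best-covered exonic part of the 8 members with exonic parts, as consensus reads (left, linear axis) and full-length reads (right, linear to 10 and log above); each point is 1 library. Slc12a7 in cardiac reaches 22 consensus and 502 full-length reads, and Slc16a10 in EDL reaches 12 and 98.

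The 8 members with exonic parts had 228 parts, stretches of exon that are used as a unit. Of these, 161 were held by every consensus read that covered them, 22 by none, 26 by some, and 19 were not covered. A part was tested where at least 5 consensus reads covered it in each library of a pair, comparing the full-length reads holding and lacking it by Fisher's exact test; p-values were adjusted over all parts of the pair by the Benjamini-Hochberg method. It was called at an adjusted p under 0.05 and a difference of at least 20 percentage points. Of 105 member parts in cardiac and EDL, 2 were called, against 1.51% of 17926 parts of all genes. None of 99 was called between cardiac and soleus, against 1.14%, and none of 164 between EDL and soleus, against 0.346%. Both called parts lie in Slc12a7, and neither was called on consensus reads. Fisher's test counts every full-length read as a separate observation, although the 502 cardiac reads of Slc12a7 had been merged into 22 consensus reads. The p-values on full-length reads are therefore too small, for members and for all genes. These 2 calls describe the full-length reads and do not establish a difference between the libraries.

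Most Slc12a7 reads in cardiac and soleus began upstream of the authors' annotated first exon. An exon that is absent from their annotation ended 30.4 kb upstream of the annotated first exon. It was held by 15 of 22 cardiac (68.2%, exact 95% interval 45.1 to 86.1), 3 of 6 EDL (50%, 11.8 to 88.2) and 10 of 11 soleus consensus reads (90.9%, 58.7 to 99.8). In full-length reads this was 472 of 502, 3 of 10 and 18 of 19. GENCODE M21 has an exon with the same end in a non-coding transcript (chr13:73733094-73733337), spliced to the same exon 2 as the coding transcript, as in the first junction printed above.

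The annotated first exon (chr13:73763697-73763890), which holds the annotated start of translation, was held by 7 of 22 cardiac, 2 of 5 EDL and 1 of 11 soleus consensus reads. In full-length reads it was held by 34 of 502 cardiac and 6 of 9 EDL reads, a difference of -59.9 percentage points, cardiac minus EDL (Fisher's exact test, adjusted p = 0.000806). On consensus reads the difference was -8.18 points, with an adjusted p of 1. The soleus library had 1 of 19 full-length reads with it, so in these reads cardiac and soleus were both low and EDL high, the last on 9 reads. On consensus reads the shares were 31.8% cardiac, 40% EDL and 9.09% soleus, with overlapping intervals, and cardiac lay nearer to EDL.

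The other called part of Slc12a7 is a microexon of 15 nt that the authors' annotation lacks (chr13:73810694-73810708). It was held by 488 of 502 cardiac, 4 of 10 EDL and 16 of 19 soleus full-length reads, and cardiac exceeded EDL by 57.2 points (Fisher's exact test, adjusted p = 2.54e-05). On consensus reads it was held by 16 of 22, 4 of 6 and 10 of 11, a cardiac to EDL difference of 6.06 points with an adjusted p of 1. No M21 transcript of the gene has an exon there.

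Slc4a3 reads began inside the gene. The form of AE3 known as the cardiac one starts from an internal promoter, with a first exon of its own. Of the 48 parts of the gene, the first 18 had no cardiac read and the next was covered by 1. The internal exon that follows (chr1:75549599-75550053) begins 3.33 kb from the annotated gene start, and its coding end is printed above. Of the 15 cardiac consensus reads, 14 held the last part of that exon, and 43 of 44 full-length reads did. No read held the annotated first exon of the gene.

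Within Slc4a3, 2 further features varied among the cardiac reads. A stretch annotated as a retained intron (chr1:75550936-75551246) was held by 6 of 15 consensus but 7 of 44 full-length reads. Of the 25 nt added by the upstream acceptors printed above, the first 11 were held by 2 and the other 14 by 3 of 15 consensus reads, and by 3 and 4 of 44 full-length reads. With no reads in EDL and soleus, neither can be compared between muscles.

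**Figure D4:**
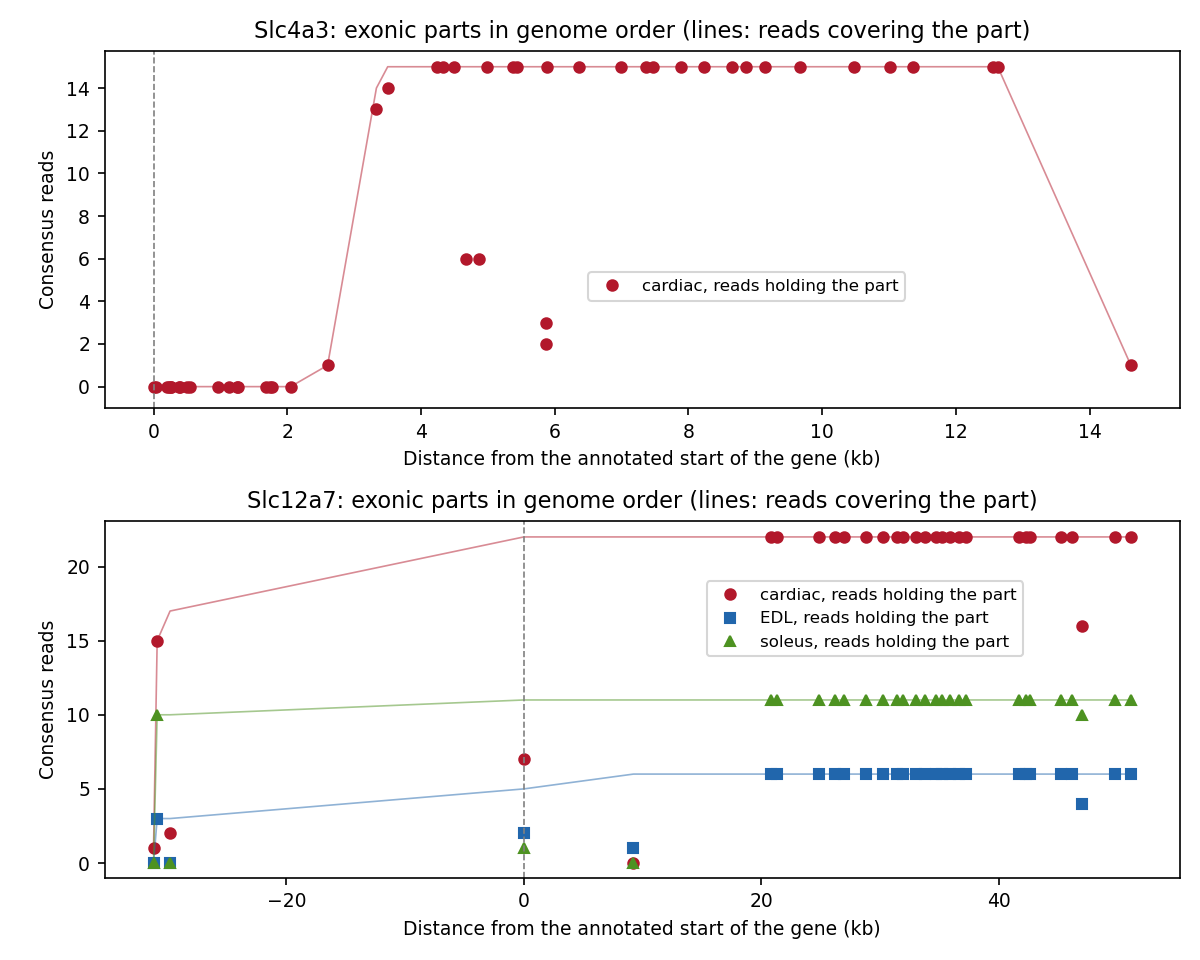
Consensus reads holding each exonic part (points) and covering it (lines), for Slc4a3 in cardiac (top) and Slc12a7 in the 3 libraries (bottom). The horizontal axis is distance in kb from the first exonic part of the authors' annotation, labelled as the annotated start of the gene. For Slc12a7 this is chr13:73763697 and not the gene start in GENCODE M21. Slc4a3 parts before 3.33 kb have at most 1 read, and the upstream exon of Slc12a7 holds 15 cardiac, 3 EDL and 10 soleus reads.

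Among the other members, 2 coding exons were skipped in every library. Exon 13 of Slc9a7, 60 nt and so a whole number of codons, was held by 5 of 8 cardiac, 3 of 6 EDL and 9 of 11 soleus consensus reads, and by 6 of 9, 4 of 13 and 12 of 14 full-length reads. EDL was lowest, but none of the pairs was called. Exon 9 of Slc6a6, 125 nt and not a whole number of codons, was held by 6 of 8 cardiac, 14 of 17 EDL and 13 of 15 soleus consensus reads, and by 34 of 38, 69 of 73 and 58 of 62 full-length reads. A coding part of Slc23a2 of 89 nt (chr2:132078413-132078501) was held by 4 of 4, 4 of 7 and 10 of 11 consensus reads. All 27 annotated parts of Slc12a2 were held by each consensus read that covered them.

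Not every read reached the annotated first exon. It was held by 8 of 9 cardiac, 15 of 17 EDL and 13 of 15 soleus reads of Slc6a6, but by 0 of 4, 5 of 11 and 3 of 8 reads of Slc12a2. Slc9a7 had it in 7 of 8, 6 of 6 and 9 of 11 reads, Slc25a12 in 2 of 3, 7 of 11 and 5 of 7, and Slc23a2 in 4 of 8, 7 of 8 and 4 of 13.

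The members were long genes. Their longest annotated transcript had a median of 5808 nt, and 22 of 32 had 5000 nt or more. The 330 solute carrier genes without a read had a median of 3162 nt, and 40 of them reached 5000 nt. Of the 66 solute carrier genes of 5000 nt or more, 33.3% had 2 or more reads (exact 95% interval 22.2 to 46), against 2.22% to 4.35% in the shorter length classes. Among all protein-coding genes the same share was 40.9% for 5000 nt or more and 1.3% to 7.76% below. The cDNA had been selected for long molecules, so a gene without reads was not shown to be silent; the part of the selection in these counts was not tested. Slc2a4 (GLUT4, the insulin-regulated glucose carrier), Slc16a1 and Slc16a3 (lactate carriers), Slc22a5 (carnitine) and Slc6a8 (creatine), named after their counts were seen, had 0 reads in every library, and their longest transcripts have 3193, 4426, 4335, 3062 and 3964 nt.

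**Figure D5:**
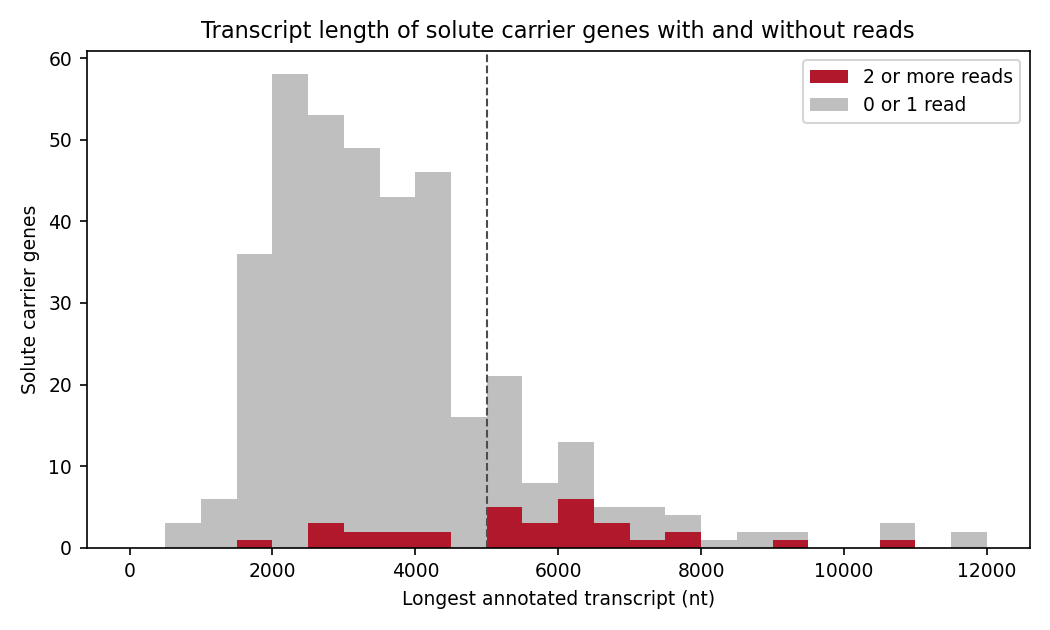
Number of solute carrier genes (vertical axis) by the length of their longest annotated transcript (nt), in red for the 32 members and in grey for those with 0 or 1 read, stacked; the dashed line marks 5000 nt, the lower end of the cDNA selection. Of the members, 22 lie at or beyond the line.

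Genes that work with these carriers were listed by role. Of 19 ion pump genes, 4 had reads. Of 4 tested between cardiac and EDL, 1 was higher in each library, against 16.9% of all genes tested. Of 4 tested between EDL and soleus, 1 was higher in each, against 7.35%. None of 3 was called between cardiac and soleus, against 16.7%. Atp2a2, the calcium pump of heart and slow muscle, had 13 cardiac, 0 EDL and 21 soleus reads, called in cardiac over EDL and EDL over soleus. Atp2a1, the calcium pump of fast muscle, had 0, 6 and 0, called in both pairs with EDL. Atp2b1, the plasma membrane calcium pump, had 11, 14 and 16 and was not called in any pair. Of 15 chaperones and regulators, Ank3 had 6, 13 and 16 reads and was lower in cardiac than in soleus, and Ank2 had 2, 1 and 9 and was lower in EDL than in soleus. Both are ankyrins, which anchor membrane proteins to the cytoskeleton. Each was the 1 call among 2 genes of this list tested in that pair. Of all genes tested, 16.7% were called in cardiac over soleus and 7.35% in EDL over soleus. Wnk2, a kinase of the family that regulates cation-chloride carriers, had 0, 4 and 0.

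Of 14 genes of GLUT4 traffic, 8 had 2 or more reads. Slc2a4 itself had none, with a longest transcript of 3193 nt. Among protein-coding genes, 4.31% of those of 3000 to 4000 nt and 40.9% of those of 5000 nt or more had 2 or more reads. Between cardiac and EDL, 1 of 8 traffic genes tested was called, against 16.9% of all genes tested. Between cardiac and soleus, of 7 tested 1 was higher in each library, against 16.7%. Between EDL and soleus, of 8 tested 1 was higher in each, against 7.35%. Tbc1d1, a brake on GLUT4 vesicles, had 7 cardiac, 31 EDL and 19 soleus reads, a cardiac to EDL ratio of 0.245 (0.0909 to 0.566) and a cardiac to soleus ratio of 0.351 (0.125 to 0.873). Its relative Tbc1d4 had 20, 13 and 26, and was called in EDL over soleus, at 0.44 (0.208 to 0.888). Lnpep, an aminopeptidase that travels with GLUT4, had 20, 15 and 3, at 6.36 (1.89 to 33.4) in cardiac over soleus and 4.4 (1.25 to 23.7) in EDL over soleus. Cltc, the clathrin heavy chain, had 54, 68 and 63 and was not called in any pair.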

How the data were processed

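The members and gene lists were chosen with earlier results of these data known. The authors deposited raw counts of consensus reads per gene and, for 686 genes, counts of consensus and full-length reads covering and holding each exonic part. Per the submitters' processing notes, STAR 2.5.0am was used with the build mm10 (GRCm38); other steps, and whether counting used strand, are not given in the sources used here. Part starts were counted from 0 in the deposited file and are printed from 1. Counts were scaled to the reads in genes, leaving out reads assigned to no single gene (9.78% cardiac, 8.92% EDL, 8.64% soleus). Ratios have exact conditional binomial 95% intervals, and shares Clopper-Pearson intervals (SciPy 1.17.1). A count of 0 was set to a floor of 3 where a ratio is given against a floor, and 0.5 was added to each count for median log2 ratios. Exonic parts were tested with two-sided Fisher's exact tests. The rules for calls were also tried on simulated data. The outcome is not given here, so the calls above draw no support from it. Positions, lengths and exons came from GENCODE M21 (GRCm38). Every member with 10 or more reads, a call or exonic parts is named, with the rest by group; of the lists of partner genes, the top 3 by reads in each and any called are named, except that some are not reported here. Alternatives were edgeR 4.0.16 TMM and DESeq2 1.42.0 size factors for scaling, totals without the 10 most abundant genes, other read minimums (none, 10, 40) and full-length reads, which were scaled to the sum of each gene's best-covered part.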

Additional observations from a re-analysis of the deposited data

How the results depend on the processing

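No paired analysis was possible because each tissue has 1 library, and leaving out a library was not possible for the same reason. Over the scalings tried (TMM, DESeq2 size factors and totals without the 10 most abundant genes), all 150 ratios of named members kept their side of the interval rule and 145 kept their direction. The other 5 lay near 1 and crossed it: Slc6a6 in EDL over soleus moved to 1.06 with size factors, 1.01 with TMM and 1.04 without the 10 most abundant genes, and the last also took Slc25a36 and Slc30a9 in cardiac over soleus to 1.04 each. Leaving out the 10 most abundant genes moved all cardiac over soleus ratios by 0.12 on the log2 scale. With no minimum number of reads, 1 member lay beyond 2-fold in cardiac over EDL and 1 in cardiac over soleus, against 0 each. Without the 10 most abundant genes the members' share was 0.967% of cardiac and 0.815% of EDL reads. Members with 10 or more reads alone held 0.645% of cardiac reads. On consensus reads, and with 10 consensus reads in each library, 0 parts of members were called in cardiac over EDL, against 2; with the second, 1 part could be tested. At the deposited limit of 30 consensus reads in some library, no part of a member could be tested. On full-length reads, of 23 ratios, 11 kept direction and side, and 8 kept direction but passed the rule only there. The other 4 crossed 1: Slc6a6 in EDL over soleus (1.46, which also passed the rule only there), Slc23a2 in cardiac over soleus (1.55), and Slc9a7 in cardiac over EDL (0.708) and EDL over soleus (1.15). Without Slc4a3, 0 members were called in cardiac over soleus, against 1. The cause of these changes was not tested, except that leaving out Slc4a3 removes its own call. Depth limits every value, since few members reach 20 reads in a pair.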

Other observations

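Other transporter families were represented in the same libraries. Of 15 Slco genes, organic anion carriers that fall outside the naming rule, Slco5a1 had 10 cardiac, 13 EDL and 16 soleus reads and was not called in any pair, and Slco3a1 had 1, 1 and 0. Of 50 ABC transporter genes, which use ATP to move their substrates, 17 had 2 or more reads, with 155 cardiac, 211 EDL and 178 soleus reads in all. Among the highest were Abcc9, a subunit of the muscle ATP-sensitive potassium channel, with 22, 38 and 34 reads, and Abcc5 with 19, 33 and 22. Between cardiac and EDL, 14 ABC genes could be tested and 2 were called, both higher in EDL, against 16.9% of all genes tested in that pair (9.5% higher in EDL), so the count says nothing particular to ABC genes. Abcd2, a peroxisomal fatty acid carrier, had 2 cardiac, 13 EDL and 8 soleus reads, a cardiac to EDL ratio of 0.167 (95% interval 0.0183 to 0.736). Abca8b had 3, 13 and 7, at 0.25 (0.0457 to 0.91). None was called in the other pairs.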
